A study of Mus musculus with 117 samples.

Results

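PWK/PhJ is an inbred mouse strain derived from wild mice, and the places are described here where its hepatocytes carried a chromatin state that the hepatocytes of 8 other inbred strains did not. The autosomes 1 to 19 were cut into 200-bp bins, and a bin was taken as private to PWK/PhJ where the other 8 strains shared 1 state and PWK/PhJ had another. Of 12313718 autosomal bins, 561176 met this rule, which is 4.56% of the bins and 112 Mb of sequence. The strains set against it were CAST/EiJ, WSB/EiJ, NZO/HlLtJ, NOD/ShiLtJ, DBA/2J, C57BL/6J, A/J and 129S1/SvImJ. All mice were females of 12 weeks, with no treatment named in the labels, and the cells were labelled as hepatocytes from liver. Each strain had chromatin immunoprecipitation sequencing (ChIP-seq) of the histone marks H3K4me1, H3K4me3, H3K27ac and H3K27me3 in 3 mice and 1 input library, 117 libraries in all. The deposited segmentation of a strain carries 1 of 14 state numbers per stretch and belongs to the strain as a whole, so each strain is 1 value and no error between mice can be given.

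As background, H3K4me3 marks active gene starts, H3K4me1 and H3K27ac mark enhancers and active regulatory sequence, and H3K27me3 is laid down by Polycomb complexes over genes held silent. A segmentation combines such marks into recurring states. Which marks make up each numbered state is not given in the sources used here, so states are called by number, and landmark genes show where they lie. Within 1 kb of the starts of 17 genes for proteins that hepatocytes secrete, state 1 held 52.5% and state 3 held 46% of the PWK/PhJ bins, against 51.0% to 58.5% and 39.5% to 47.5% in the other strains. At 44 developmental transcription factor genes, most of them silent in adult liver, state 13 held 52.7%, against 45.2% to 56.3%. At 20 Kupffer cell and leukocyte genes, state 14 held 78.7% in PWK/PhJ, against 63.3% to 74.7%. State 14 at the developmental genes was 4.35% in PWK/PhJ, also above the range of the other strains, 0.870% to 2.78%. States 1 and 3 at the liver-secreted genes and state 13 at the developmental genes lay inside that range.

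The promoters of 6 genes at which PWK/PhJ changed state show the kinds of sequence involved. They are RefSeq sequences of assembly GRCm38.p6, from 250 bases before to 50 after a start, 300 bases each, and so of the C57BL/6J reference and not of PWK/PhJ. CG dinucleotides, the usual sites of DNA methylation, are in capitals. The first 2 stand for the exchange of states 13 and 14 in silent gene families.
Olfr1111 (chr2:87150610-87150909, minus strand): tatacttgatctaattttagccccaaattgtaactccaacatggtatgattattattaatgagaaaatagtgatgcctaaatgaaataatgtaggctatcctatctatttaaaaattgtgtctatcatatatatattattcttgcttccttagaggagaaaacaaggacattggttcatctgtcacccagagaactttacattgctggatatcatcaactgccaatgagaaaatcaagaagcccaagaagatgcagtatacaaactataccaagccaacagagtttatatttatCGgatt
Krt90 (chr15:101562901-101563200, minus strand): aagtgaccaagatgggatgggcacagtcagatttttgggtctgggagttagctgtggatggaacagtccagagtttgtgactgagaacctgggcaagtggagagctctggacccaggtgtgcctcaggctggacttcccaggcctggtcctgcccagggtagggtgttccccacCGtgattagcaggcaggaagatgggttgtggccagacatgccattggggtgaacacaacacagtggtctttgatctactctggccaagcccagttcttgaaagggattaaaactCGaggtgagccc
The next pair shows the start that went from state 14 to state 1 over most of its window, and a start beside which state 9 was replaced by state 14.
Rnf212 (chr5:108774978-108775277, minus strand): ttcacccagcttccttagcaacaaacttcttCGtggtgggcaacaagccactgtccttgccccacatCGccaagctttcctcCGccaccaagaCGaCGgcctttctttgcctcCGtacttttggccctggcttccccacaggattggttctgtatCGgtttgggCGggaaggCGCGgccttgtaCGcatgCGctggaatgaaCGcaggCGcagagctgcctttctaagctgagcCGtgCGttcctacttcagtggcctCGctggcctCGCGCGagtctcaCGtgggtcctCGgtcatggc
Zfp626 (chr7:27806946-27807245, plus strand): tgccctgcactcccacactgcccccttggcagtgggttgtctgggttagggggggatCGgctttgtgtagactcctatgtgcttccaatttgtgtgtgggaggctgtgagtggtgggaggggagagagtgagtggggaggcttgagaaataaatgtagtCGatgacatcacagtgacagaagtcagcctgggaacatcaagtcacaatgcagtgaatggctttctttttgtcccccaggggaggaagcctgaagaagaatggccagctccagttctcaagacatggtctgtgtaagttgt
The last pair comes from multigene families of the liver whose starts left state 1.
Mup19 (chr4:61782175-61782474, minus strand): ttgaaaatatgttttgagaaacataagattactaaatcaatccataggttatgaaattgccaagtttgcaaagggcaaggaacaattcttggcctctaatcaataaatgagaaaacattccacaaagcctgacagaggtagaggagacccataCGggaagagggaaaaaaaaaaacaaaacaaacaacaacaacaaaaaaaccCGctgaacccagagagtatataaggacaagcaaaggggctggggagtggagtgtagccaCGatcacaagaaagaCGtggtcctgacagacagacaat
Cyp2c40 (chr19:39812765-39813064, minus strand): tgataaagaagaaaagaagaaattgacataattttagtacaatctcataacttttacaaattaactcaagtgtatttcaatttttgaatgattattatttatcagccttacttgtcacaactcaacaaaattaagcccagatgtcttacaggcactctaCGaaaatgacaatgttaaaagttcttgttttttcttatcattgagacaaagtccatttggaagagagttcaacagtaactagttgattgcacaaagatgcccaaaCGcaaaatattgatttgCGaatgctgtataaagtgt
The Rnf212 promoter held 22 CG dinucleotides and the Olfr1111 promoter 1, against a median of 14 over the 16457 protein-coding genes with a listed start. Krt90 and Zfp626 held 2 each, Cyp2c40 held 3 and Mup19 held 4.

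PWK/PhJ had the largest private share of the 9 strains. Under the same rule CAST/EiJ and WSB/EiJ, which also derive from wild mice, had 2.35% and 2.01%. NOD/ShiLtJ followed with 1.51% and A/J with 1.35%. The lowest shares were 0.851% in 129S1/SvImJ, 0.823% in NZO/HlLtJ, 0.772% in DBA/2J and 0.647% in C57BL/6J. The mean of the other 8 strains was 1.29% ± 0.632 (SD, n = 8), and PWK/PhJ had 1.94 times the share of CAST/EiJ. The rule itself picks the bins, so this share is a description and no p is given for it. Each strain also takes part in the rule for the others, so an unusual strain lowers their shares. With PWK/PhJ left out, so that 7 strains had to share a state, the other strains had 0.883% to 3.42%. PWK/PhJ itself had 4.78% to 5.63% when 1 other strain was left out. PWK/PhJ was the highest of the 9 strains in 292 of the 484 windows of 5 Mb, and on every autosome its share exceeded that of the next strain, from 1.23 times on chromosome 10 to 2.68 times on chromosome 15.

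**Figure D1:**
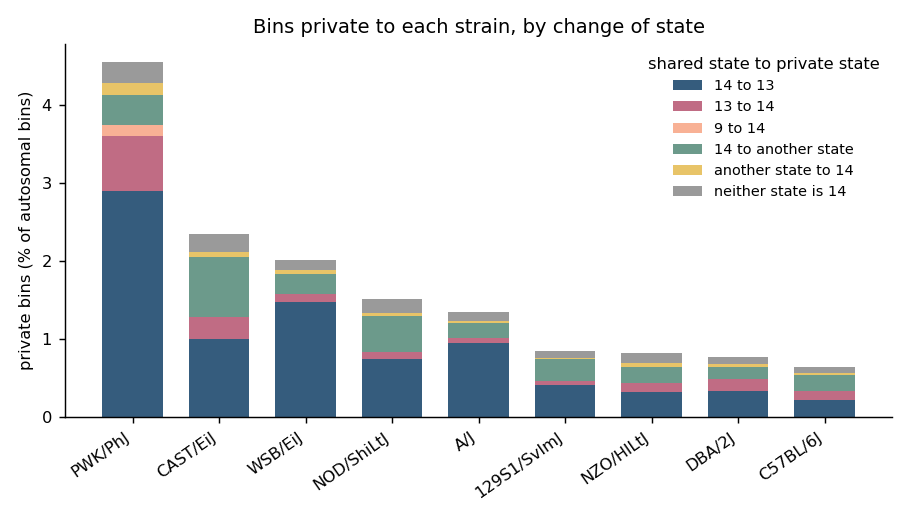
Bars give the private bins of each strain as a percentage of autosomal bins, divided by the change from the state shared by the other 8 strains to the private state. PWK/PhJ reaches 4.56%, of which 14 to 13 makes up the largest piece, and CAST/EiJ follows at 2.35%.

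Just outside the rule lay 395734 bins, 3.21% of the autosomes, in which 7 of the other 8 strains shared a state and PWK/PhJ differed. The eighth strain had the same state as PWK/PhJ in 87.5% of them. CAST/EiJ was that eighth strain in 132106 bins, and NOD/ShiLtJ in 68415. PWK/PhJ and CAST/EiJ shared a state against the remaining 7 strains in 115177 bins, 0.935% of the autosomes, so private bins of PWK/PhJ were 4.87 times as many.

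States 13 and 14 were exchanged in 79.0% of the private bins. The change from 14 to 13 covered 357142 bins, 63.6% of the private bins and 71.4 Mb, and the change from 13 to 14 covered 86133 bins, 15.3% and 17.2 Mb. The remaining 117901 bins were spread over other changes, of 131 kinds. The most frequent among them were 14 to 4 with 22244 bins, 14 to 6 with 19376, 9 to 14 with 17276, 4 to 14 with 9803 and 1 to 2 with 8405. When states 13 and 14 were counted as 1 state, the private share of PWK/PhJ was 1.02% and that of CAST/EiJ was 1.16%, so the order of these 2 strains turned.

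The direction of the changes depended on how states 13 and 14 were counted. Leaving state 14 made up 72.2% of them, inside the range of 61.3% to 85.8% in the other strains (exact two-sided permutation of 1 strain against 8, p = 0.889). Entering state 14 made up 21.7%, against 6.72% to 26.1% (exact permutation p = 0.556). With states 13 and 14 merged, leaving the merged state made up 46.1%, the lowest of the 9 strains, against 55.6% to 76.5%. Entering it made up 28.5%, the highest, against 2.48% to 13.7% (exact permutation p = 0.111 for each). The smallest p such a test can give is 0.111, so no comparison of 1 strain with 8 could pass 0.05. The strain values also come from bins that the rule picked and are not independent, so each p is only a description.

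The runs of private bins were long where states 13 and 14 were exchanged. A run is a row of adjacent private bins with the same change, and the 136655 runs of PWK/PhJ averaged 821 bp, against 459 to 660 bp in the other strains (exact permutation p = 0.111, the smallest possible). With states 13 and 14 merged the mean was 417 bp, inside the range of 337 to 470 bp in the other strains (exact permutation p = 0.667). Runs of 2 kb or more held 37.8% of the private bins in PWK/PhJ, 19.2% in CAST/EiJ and 24.3% in WSB/EiJ. The median run was 400 bp, against a mean of 375 bp over the medians of the other strains, so the long runs set the mean. Runs from 14 to 13 averaged 1147 bp and runs from 13 to 14 averaged 980 bp. A run stood alone, with its private state continued on neither side, in 34.2% of all runs, against 22.6% to 36.0% (exact permutation p = 0.222). For 14 to 13 this was 45.2%, and for 13 to 14 it was 9.94%. Many runs of private state 13 were thus islands, while most runs of private state 14 adjoined further state 14.

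The longest run lay at chr9:52637401-52658200. Its 20800 bp were in state 13 in the other strains and in state 14 in PWK/PhJ, it overlapped no annotated gene, and a second run of this kind, of 18400 bp, lay nearby at chr9:52546801-52565200. Of the 10 longest runs, 7 went from 14 to 13 and 4 were on chromosome 11. Only 1 of the 10 overlapped a protein-coding gene, Fpr-rs7, a formyl peptide receptor family member, at chr17:20114001-20130400. Among the rarer changes, the longest run lay in Mroh2a, 10600 bp from 4 to 14 at chr1:88226401-88237000. A run of 8000 bp from 14 to 4 lay in Pnpla3, a lipid droplet hydrolase gene, at chr15:84172201-84180200. A run of 7400 bp from 4 to 14 lay in Ephx2, the gene of soluble epoxide hydrolase, at chr14:66093401-66100800.

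State 13 moved in PWK/PhJ more than it grew. It covered 281 Mb of autosomes, 11.4% of the bins, inside the range of 9.40% to 13.1% in the other strains. Yet 25.4% of the state 13 bins of PWK/PhJ were private changes from 14, against 2.37% to 11.2% in the others. Of the 410380 bins that the other 8 strains shared as state 13, PWK/PhJ had state 14 in 21.0%, against 1.91% to 9.81% for another strain in its place. PWK/PhJ therefore had more private state 13 and had lost more shared state 13 than any of the other strains, at a similar total.

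Gene density separated these gains from the losses. In the 121 windows of 5 Mb with at most 16 protein-coding genes, 6.63% ± 5.13 of the bins went from 14 to 13 (SD over windows). In the 121 windows with at least 54 genes this was 1.21% ± 1.79. The change from 13 to 14 had the opposite order, with 0.251% ± 0.334 in gene-poor and 1.04% ± 0.977 in gene-rich windows. Across all 484 windows the Spearman correlation with the number of genes was -0.572 for 14 to 13 and 0.551 for 13 to 14, given as a description because neighbouring windows are not independent. In the other strains the first of these lay between -0.420 in NOD/ShiLtJ and 0.440 in WSB/EiJ. The second lay between -0.123 in WSB/EiJ and 0.323 in NOD/ShiLtJ, so a positive value was not limited to PWK/PhJ. These percentages are of all bins in a window and not of the bins that the other strains shared as 13 or 14.

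The order of state 13 itself was turned round. In every other strain the mean share of state 13 was higher in gene-rich than in gene-poor windows, by 1.26 to 2.10 times, with 10.9% to 15.6% in gene-rich and 5.62% to 9.69% in gene-poor windows. PWK/PhJ had 15% in gene-poor and 9.51% in gene-rich windows, above all 8 other strains in the former and below all 8 in the latter. Its Spearman correlation between genes per window and state 13 was -0.284, while the others ranged from 0.206 to 0.472.

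**Figure D2:**
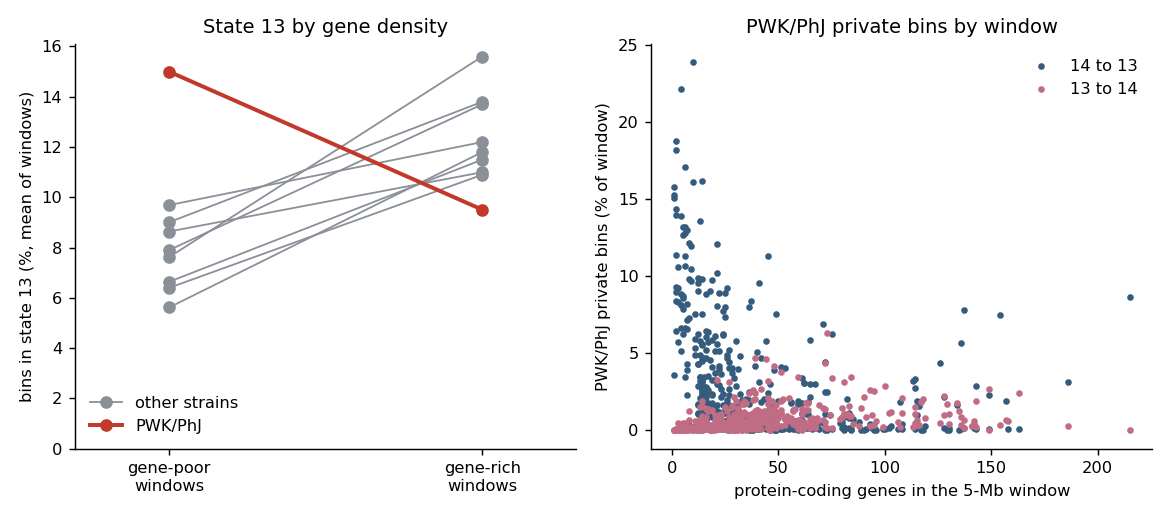
The left panel plots the mean percentage of bins in state 13 in gene-poor and gene-rich 5-Mb windows, 1 line per strain. The right panel plots each of 484 windows by its number of protein-coding genes and its percentage of PWK/PhJ private bins from 14 to 13 and from 13 to 14. The PWK/PhJ line falls from 15% to 9.51% where all other lines rise.

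The private bins were concentrated in part of the genome. The median 5-Mb window had 3.37% private bins, the lowest 0.572% and the highest 24.7%. Some 39 windows exceeded 10% and together held 24% of the private bins. The highest was chr11:10000001-15000000, with 10 protein-coding genes, where state 13 covered 40.2% in PWK/PhJ and 10.9% on average in the others, and no other strain had more than 1.54% private bins. It was followed by chr15:20000001-25000000 at 22.5%, a window with 4 protein-coding genes, where state 13 covered 30.7% in PWK/PhJ and 3.11% on average elsewhere. For the change from 13 to 14 the highest window was chr11:80000001-85000000, with 73 protein-coding genes, where 6.33% of the bins changed and state 13 covered 15% in PWK/PhJ and 33.6% on average in the others. Over whole chromosomes the private share ran from 3.11% on chromosome 10 to 6.19% on chromosome 16.

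Most of the new state 13 lay far from the listed starts of protein-coding genes. Of the bins that went from 14 to 13, 68.8% were more than 200 kb from the nearest listed start of a protein-coding gene and the median distance was 431 kb. Among all bins that the other 8 strains shared as state 14 these values were 42.3% and 135 kb. Inside a protein-coding gene lay 21.1% of the 14 to 13 bins and 35.7% of those shared as state 14. The bins from 13 to 14 had a median distance of 61.5 kb, close to the 58.3 kb of all bins shared as state 13. Distances were taken on 18 autosomes, since the start table used lists no start on chromosome 18.

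Olfactory receptor genes, which encode odour receptors and lie in clusters that are silent outside the nose, were the largest family among the genes touched by 14 to 13. A gene counts as touched where a private bin lies within 1 kb of a listed start. Of 938 olfactory receptor genes with a listed start, 269 were touched, 28.7%, against 2.45% to 6.50% in the other strains. Over all genes 18.3% were touched in PWK/PhJ. The change was 14 to 13 at 224 of the 269 and 13 to 14 at 38. Over all genes, 2.63% had a 14 to 13 bin and 2.52% a 13 to 14 bin at a start. Olfactory and vomeronasal receptors made up 63.9% of the 432 genes with a 14 to 13 bin, while they are 7.66% of all genes with a start. A 14 to 13 bin can arise only where the other 8 strains share state 14. The bases over all genes are not limited to such starts, so part of these contrasts follows from the rule. State 14 covered 77.7% to 84.9% of the olfactory receptor start windows in the other strains. Of 1658 starts with state 14 over the whole window in the other 8 strains, 233 had a 14 to 13 bin.

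The clusters differed by chromosome. On chromosome 2, 70 of 243 olfactory receptor genes had a 14 to 13 bin and none had the reverse, and state 13 covered 21.0% of their start windows in PWK/PhJ against 4.71% on average in the others. Chromosome 9 had 41 of 109 with 14 to 13, and state 13 there covered 41.2% against 11.7%. On chromosome 11, 8 of 72 genes had 13 to 14 and none had 14 to 13, and state 13 covered 28.4% in PWK/PhJ against 46.7%. On chromosome 4 the values were 19.5% and 50.5%. PWK/PhJ was not below the mean wherever the other strains had much state 13: on chromosome 19 it had 65.8% against 41.7%. Over all olfactory receptor starts, state 13 covered 28.3% in PWK/PhJ and 14.3% to 21.5% elsewhere. The higher share of touched genes in PWK/PhJ did not hold in every cluster. On chromosomes 6, 11, 13 and 14 another strain had a larger share of touched olfactory receptor genes. On chromosome 11 PWK/PhJ had 11.1% and the highest other strain 18.1%, and on chromosome 14 the values were 6.06% and 27.3%. On chromosomes 1, 2, 4, 7, 9, 10, 16, 17 and 19 PWK/PhJ had the largest share. The few such starts on other chromosomes were not compared by chromosome.

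Single receptors changed as a whole. Olfr1111, whose promoter is printed above, had state 14 in all 11 bins of its start window in each of the other 8 strains and state 13 in all 11 in PWK/PhJ, and all 6 bins of its gene body changed too. On the same chromosome, Olfr1082, Olfr1093 and Olfr1109 also had all 11 window bins changed. Among the vomeronasal receptors, which detect pheromones, 60 of 322 genes were touched, 18.6%, close to the 18.3% of all genes in PWK/PhJ, against 0.932% to 9.01% in the other strains. Vmn2r100, Vmn2r101 and Vmn2r105 on chromosome 17 had 11 of 11 bins changed from 14 to 13, and so did Vmn1r71 and Vmn1r76 on chromosome 7. With a PWK/PhJ count that stands near its own background, the vomeronasal share is high only beside the other strains. Receptor genes of both families are near-copies of each other, reads may not be placed uniquely among them, and single genes are uncertain.

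Genes outside these receptor families also took state 13 over most or all of the start window. They include Skint2, a skin T cell selection gene of which 48 body bins, 24.6%, changed, Adam29, a testis protease-family gene with 44, or 24.3%, and Klra7, a natural killer cell lectin receptor with 13 of the 19 bins of its start windows changed. None of these had a private bin in the start windows in any other strain. In all, 54 genes had every bin of the start window private. Of these, 39 changed from 14 to 13 throughout and 9 from 13 to 14, and 24 were olfactory and 7 vomeronasal receptors.

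The promoters of these genes were poor in CG. Genes with a 14 to 13 bin had a median of 1.00 CG dinucleotides in the 300 bases and a GC content of 36.3%, against 14 and 56.7% over all starts. The letters TATAAA occurred on either strand in 42.4% of them and in 13.5% of the 300-base promoters over all starts. Whether this goes beyond their lower GC content was not tested. Olfactory receptor promoters without a 14 to 13 bin also had a median of 1.00 CG, so this median was the same with and without the change. Their GC content was 36.2%, against a lower 33.7% for those with such a bin, a difference that was not tested. Among the 1658 starts at which the other 8 strains had state 14 over the whole window, the median was 2.00 CG and the GC content 42.7%, and for the 233 of these with a 14 to 13 bin the values were 1.00 and 35%. Outside the receptor families the 156 genes with a 14 to 13 bin had a median of 2.00 CG and a GC content of 42.3%. Genes with a 13 to 14 bin had a median of 6.00.

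Keratin genes stood on the side of the losses. Keratins form the filaments of epithelia and hair, and their genes lie in a type I cluster on chromosome 11 and a type II cluster on chromosome 15. The family was picked after its values had been seen. Of 26 keratin genes on chromosome 15, 19 had bins from 13 to 14 in their bodies and none had the reverse. Over all protein-coding genes these shares were 10.3% and 9.33%. A 13 to 14 bin can arise only where the other 8 strains share state 13, and this base is not limited to such genes. State 13 covered 15.3% of the keratin gene bodies on chromosome 15 in PWK/PhJ and 44.2% to 66.6% in the other strains. Of 27 on chromosome 11, 12 had bins from 13 to 14 and 1 had the reverse, with 13.4% in state 13 in PWK/PhJ and 28.5% to 68.1% elsewhere. Krt90 had all 11 start-window bins in state 13 in each of the 8 other strains and in state 14 in PWK/PhJ, and 41 of its 54 body bins changed. Krt5, the keratin of basal epithelial cells, changed in 26 of 30 body bins, and Krt7, a keratin of bile duct cells, in 24 of 78.

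Further starts lost state 13 in part or whole. At starts in general the 2 directions were about equal: state 13 came in for another state at 493 genes, 3.00%, and gave way to another at 495, 3.01%. Lamp3, a lysosomal membrane protein gene of dendritic cells and lung, changed in all 11 window bins. Kcnj16, a potassium channel gene, changed in 13 of the 44 bins of its start windows and 78 of 300 body bins. Sv2b, a synaptic vesicle protein gene, had 14 window bins changed, Col9a1, a cartilage collagen gene, had 13, and Ndrg4 had 11. Of these, Sv2b, Col9a1 and Ndrg4 had at most 2 private window bins in any other strain and Kcnj16 had at most 5. In all, 200 genes had at least 50% of their bodies private, 125 mainly from 14 to 13 and 49 mainly from 13 to 14. Olfactory receptors were 91 of the 125 and 14 of the 49, and keratin and keratin-associated genes were 7 of the 49.

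State 9, which flanks gene starts, was reduced in PWK/PhJ. It covered 0.271% of the autosomal bins, against 0.549% to 1.59% in the other strains, and its segments averaged 599 bp, against 972 to 1695 bp. Short segments were not limited to state 9. PWK/PhJ also had the shortest mean segments of all strains in states 1, 4, 8, 10, 11, 12, 13 and 14. In states 5 and 7 it had the longest. Its cover of states 1, 8, 10 and 11 was the lowest of all strains as well. Of the 29853 bins that the other 8 strains shared as state 9, 61.3% were in another state in PWK/PhJ. For another strain in its place the share was 2.05% to 5.97%, and 2.71% to 13.3% when PWK/PhJ was left out of the sharing strains. In PWK/PhJ these bins went to state 14 in 17276 cases, a change that no other strain had in more than 265 bins. The bases differ, since PWK/PhJ must itself carry state 9 in the shared bins of the others. Those were only 11807 to 12299 bins, against 29853 for PWK/PhJ. State 9 lay near starts in general: of the shared state 9 bins, 81.9% were within 5 kb of a listed start, and of those that went to 14, 82.6%.

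After the start, the loss lay on the outer side of the state 9 zone. Along the gene, 1000 bp after the start, 3.60% of starts carried state 9 in PWK/PhJ, within the 3.38% to 4.81% of the other strains. At 2000 bp the values were 10.4% and 14% to 16.6%, and at 3000 bp they were 2.81% and 14.1% to 22.2%. The PWK/PhJ profile peaked at 10.5%, 1800 bp after the start, and the mean of the others peaked at 18.3%, 2800 bp after it. Before the start PWK/PhJ peaked at 8.54%, at -1400 bp, and the mean of the others at 18.3%, at -1800 bp, and PWK/PhJ was below all other strains in every bin from -5000 to -400 bp. State 3 at the start itself was alike, at 40.7% in PWK/PhJ and 40.4% on average in the others.

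**Figure D3:**
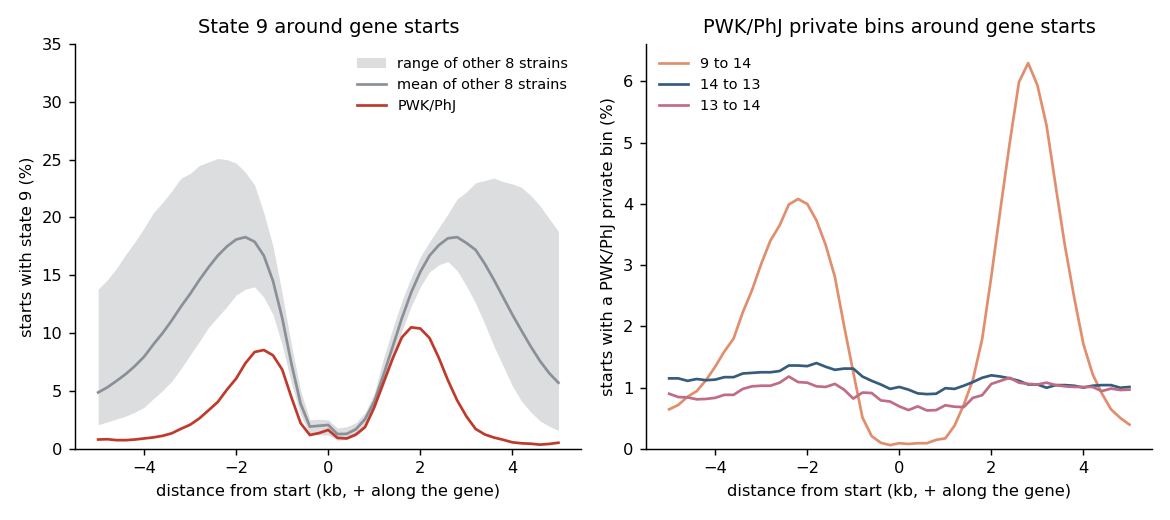
The left panel plots the percentage of starts with state 9 in each 200-bp bin from 5 kb before to 5 kb after the start, for PWK/PhJ and for the mean and range of the other 8 strains. The right panel plots the percentage of starts with a PWK/PhJ private bin of 3 kinds. State 9 of PWK/PhJ lies below the range of the other strains up to 400 bp before the start and from 1600 bp after it, and the change from 9 to 14 peaks at 6.30%, 2800 bp after the start.

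This loss touched many genes in a small way. Within 5 kb of a start, 4847 genes had a bin that the other 8 strains shared as state 9, and 83.5% of them had a bin from 9 to 14 in PWK/PhJ. At 1337 genes all of the shared state 9 was in state 14. No other strain had a 9 to 14 bin at more than 125 genes, counted on the smaller number of shared state 9 bins of those strains. State 9 was present within 5 kb at 37.5% of genes in PWK/PhJ, with a median of 4.00 bins where present, against 42.5% to 51.9% and medians of 8 to 16 bins in the others. Zfp626, a zinc finger gene, had 2 bins of state 9 and 8 of state 14 in its start window in PWK/PhJ, and 10 or 11 bins of state 9 in every other strain. The longest runs of this change covered 5000 bp at Mrpl58, a mitochondrial ribosome protein gene (chr11:115406401-115411400), and 4600 bp at Cops3, a COP9 signalosome subunit gene (chr11:59841801-59846400). Genes with a 9 to 14 bin within 1 kb of the start, 342 or 2.08% of genes, had CG-rich promoters with a median of 17 CG dinucleotides.

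The other states differed in smaller shares of their shared bins than state 9 did. For every state but 3 and 5, no other strain had a higher share than PWK/PhJ. State 4 differed in 23.1%, against 3.60% to 17.2%. State 7 differed in 39.5%, against 3.70% to 22.4%, on only 86 shared bins. State 3, the state at starts, was the one that differed least, in 2.90% of the bins that the other 8 strains shared, inside their range of 0.656% to 3.26%. State 1 differed in 7.70%, against 0.673% to 5.13%. States 8 and 11 differed in 23.9% and 56.8%, against 2.33% to 9.85% and 7.91% to 22.4%, the latter on only 296 shared bins. At starts, 3 to 1 was found at 362 genes and 1 to 3 at 222, both with CG-rich promoters, at medians of 22 and 21 CG dinucleotides.

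**Figure D4:**
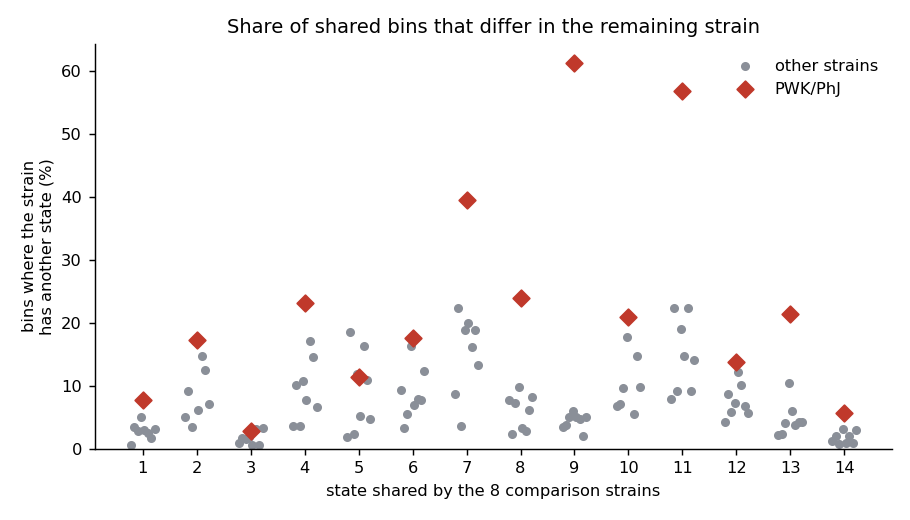
For each state, points give the percentage of bins shared by 8 strains in which the remaining strain had another state, with PWK/PhJ as diamonds. PWK/PhJ stands at 61.3% for state 9 and 21.4% for state 13, and at 2.90% for state 3 it lies among the other strains.

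Over all genes, private bins were not concentrated at starts in PWK/PhJ. Private bins lay within 1 kb of a listed start 0.75 times as often as autosomal bins in general, the lowest of the 9 strains, against 0.886 to 1.81 times (exact permutation p = 0.222). Within 2 kb the ratio was 1.01, inside the range of the others, 0.924 to 1.66. With 13 and 14 merged it was 1.76, also inside the range of 1.53 to 3.64. Of 16457 genes, 3008 were touched, 18.3%. The next strains were CAST/EiJ with 14.5%, WSB/EiJ with 12.6%, NOD/ShiLtJ with 12.4%, DBA/2J with 11.5% and NZO/HlLtJ with 10.6%. A/J had 9.94%, C57BL/6J 7.05% and 129S1/SvImJ 6.87%. A single bin was all that touched 1708 of them, and 728 genes, 4.42%, had at least 3.

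Major urinary protein genes were the liver family most changed. These genes encode lipocalins that the liver secretes and that carry pheromones in urine, and they lie in a cluster on chromosome 4. Private bins touched 12 of the 16 with a listed start, 75%, against 0 to 25.0% in the other strains and 18.3% of all genes in PWK/PhJ. In 44 of the 55 private bins at these starts the other strains had state 1 and PWK/PhJ had state 5. State 5 covered 53.3% of the start-window bins in PWK/PhJ, 3.81% in NOD/ShiLtJ and 0 in the other 7 strains, and it was present at 13 of the 16 genes. State 1 covered 21.4%, against 61.9% to 86.7%. When PWK/PhJ was left out, CAST/EiJ also touched 75% of these genes, so a high count was not limited to PWK/PhJ. CAST/EiJ had no state 5 there but 11.9% of state 3, against 0.476% to 2.38% in the other strains.

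Gene by gene, Mup19 had state 5 in all 11 bins of its window in PWK/PhJ. The other strains had state 1 in 11 bins, except A/J with 9 and NOD/ShiLtJ with 9, and 1 bin of NOD/ShiLtJ was in state 5. Mup-ps16, annotated as protein-coding despite its name, had 9 bins from 1 to 5, Mup15 and Mup17 had 6 and Mup2 had 5. Mup3 instead had 4 bins from 1 to 4, with 14 of its 20 body bins private. Mup4, Mup6, Mup14 and Mup21 had no private bin at the start, but not all of them were alike across strains. Mup14 had state 5 in all 11 bins in PWK/PhJ and in 2 bins in NOD/ShiLtJ. Its bins fell outside the rule because the other strains did not share 1 state there. Mup6 had 5 bins of state 7 and 2 of state 5 in PWK/PhJ, and no other strain had either state there. Across the cluster, chr4:59956804-62150841, 11.6% of bins were private, against 0.137% to 2.59%. State 13 covered 27.3% there in PWK/PhJ, against 0.273% to 12.7%, and states 5 and 7 covered 7.50% and 9.27%, against at most 1.47% and 1.60%. This cluster of 2.19 Mb held 17.6% of all autosomal state 5 bins and 18.3% of the state 7 bins of PWK/PhJ. The longest state 5 segment spanned 5400 bp at chr4:61779001-61784400, over Mup19 and Mup-ps16. These genes are near-identical copies among which reads may be shared out wrongly, and values of single genes are uncertain.

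**Figure D5:**
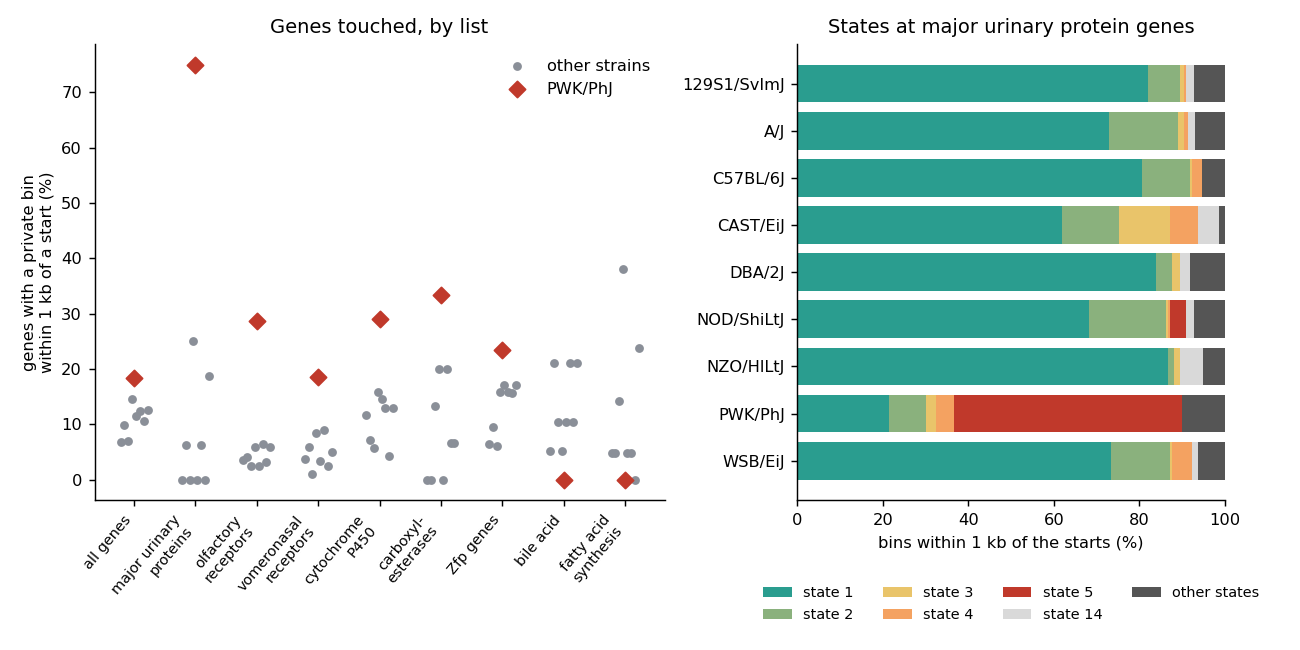
The left panel plots the percentage of genes with a private bin within 1 kb of a start, for all genes and 8 gene lists, with PWK/PhJ as diamonds. The right panel divides the bins at the starts of 16 major urinary protein genes by state in each strain, and state 5 fills 53.3% of the PWK/PhJ bar.

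Cytochrome P450 genes, which encode enzymes that oxidise drugs, steroids and fatty acids, were touched at 20 of 69 starts, 29.0%, against 4.35% to 15.9% in the other strains and 18.3% of all genes in PWK/PhJ. Most changes were small, with 19 of the 50 private bins going from 1 to 2. Cyp2c40 and Cyp2j12 had the most private bins, 7 of 11 each. At Cyp2c40 all 11 window bins were in state 4 in PWK/PhJ, where the other strains had 7 to 11 bins in state 1 and most of the rest in state 2. At Cyp2j12 the private bins went from 13 to 14, and Cyp2c38 had 5 from 1 to 2. Among the carboxylesterases, hydrolases of drugs and lipid esters, 5 of 15 were touched, 33.3% beside 18.3% of all genes, and Ces2f had 9 of 11 bins from 4 to 14 with no private bin there in any other strain. These families hold close copies, and single genes are uncertain for that reason. Of the 327 Zfp genes, 77 were touched, 23.5%, against 6.12% to 17.1% in the other strains and again 18.3% of all genes, with 38 of the 114 private bins going from 9 to 14.

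Gene lists of core liver functions differed in how many starts were touched, and where they were touched it was mostly by 1 bin. None of 21 genes of fatty acid synthesis and storage and none of 19 genes of bile acid synthesis and transport were touched in PWK/PhJ, against 0 to 38.1% and 5.26% to 21.1% in the other strains. Of 17 genes for secreted hepatocyte proteins, 1 was touched, 5.88%, against 0 to 11.8% in the other strains. Of 17 genes of glucose metabolism, 1 was touched, 5.88%, against 0 to 29.4%. Among 18 hepatocyte transcription factor genes 4 were touched, 22.2%, against 5.56% to 22.2%. Each of these 4 had bins from 3 to 1 alone, namely Rxra with 2 bins and Cebpa, Nr1i2 and Ppara with 1. Over all genes the PWK/PhJ share was 18.3%. Of 22 genes of fatty acid oxidation 5 were touched, 22.7%, against 4.55% to 22.7% in the other strains, with 4 private bins in all, and Acaa1a, Acaa1b, Acot5 and Hadha had 1 bin each. Of 13 genes of liver zonation 4 were touched, 30.8%, against 0 to 23.1%: Cyp2f2 by 3 bins and Axin2, Glul and Pck1 by 1 each. These lists are short, and 1 gene moves a share by several points.

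Marker genes of other liver cells were looked at beside these results, since a preparation of hepatocytes can hold other cells. Of 20 Kupffer cell and leukocyte genes, 0 were touched, as in 129S1/SvImJ and NZO/HlLtJ. In a shorter list of 7 such genes, 1 had state 1 or 3 at its start in PWK/PhJ and none had in the other strains. Over the 20 genes, states 1 and 3 covered 2.26% and 4.52% in PWK/PhJ, inside the ranges of 1.36% to 5.43% and 0 to 4.52%. Of 14 endothelial genes 3 were touched (Erg, Wnt2 and Kdr), and of 21 bile duct and stellate genes 4 (Krt7, Des, Col3a1 and Prom1). The endothelial share was 21.4%, against 7.14% to 28.6% in the other strains. The bile duct and stellate share was also inside the range of the others, 0 to 38.1%. Over all genes the PWK/PhJ share was 18.3%, so both lay near that background. State 3 covered 27.3% of the endothelial start windows in PWK/PhJ, against 0.505% to 17.2% in the other strains. The part of other cells in the private states was not tested.

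Few starts moved between the states found at active genes and states 13 or 14. States 1, 2 or 3 appeared at the starts of 24 genes, 0.146%, where the other 8 strains had 13 or 14, and gave way to 13 or 14 at 31, 0.188%. Rnf212, a ubiquitin ligase gene of meiotic crossover, was changed in all 11 bins: the other strains had state 14 throughout, and PWK/PhJ had 8 bins of state 1 and 1 each of states 3, 8 and 9. Ffar2, a receptor for short-chain fatty acids, had 14 of 24 bins changed from 14 to 2, and 23 of its 29 body bins were private. Miox, the enzyme that opens myo-inositol, had 5 bins from 14 to 1, and Asic3, an acid-sensing channel, and Marchf1, a ubiquitin ligase of antigen-presenting cells, had 4 each from 14 to 2. Filip1 had 2 bins from 14 to 3 and 6 from 14 to 4. In the other direction, Zfp605 had 4 bins and Usp16, a histone H2A deubiquitinase, had 3 from 1 to 14. Ccn6, Gsdme, Olfml1 and Prcd had 2 each. No other strain had a private bin in these windows except at Usp16, where the highest count was 1.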

How the data were processed

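ChIP-seq libraries of 9 strains, 13 per strain, were summarised by the authors in 1 segmentation per strain. The deposited values are a category, the state number in column 4, and neither a count, a signal nor a score; the score column holds 0. Per the submitters' processing notes the build was mm10, and FastQC 0.11.5 and MACS 1.4.2 were among the tools. The aligner, the segmentation tool, its treatment of strain genomes and the sequencing depth are not given in the sources used here, so no counting error can be given.

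From the deposited segmentations, states of 200-bp bins were read, private bins and runs were found for every strain by the same rule, and each strain entered as 1 value. Samples were grouped by the strain in their labels. Gene positions came from a RefSeq table and starts and strand from RefSeq promoters, both of assembly GRCm38.p6. Starts were found for 16457 of 20665 autosomal protein-coding genes, none on chromosome 18. Windows reached 1 kb to each side of every listed start. The tests were exact two-sided permutations of 1 strain against 8. No p is reported for the private share, which the rule fixes, or for the genes touched, which follow from it. The tested values also come from the bins that the rule picked, and each strain helps to define the bins of the others. The strain values are thus not independent, and each p given is only a description.

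Members, gene lists and classes were chosen with earlier results of these data known. For each of 4 classes of change the 6 genes with the most private start-window bins of that class were named. For each of 30 lists up to 4 genes could be named. Symbols that begin with Gm or LOC or end in Rik were left out. Keratins, the state 9 profile, single genes with long runs and the fully private windows were picked after their values had been seen, and so were kinases removed from the list of ribosomal proteins. Alternatives covered single strains left out, single-bin segments, a match within 1 bin, merged states, other bases, bin sizes, windows and gene sets. On simulated data of 200000 bins, all 10936 planted private bins were found, with 0 false ones. Python 3.11.15, numpy 2.4.6, scipy 1.17.1 and matplotlib 3.10.9 were used.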

Additional observations from a re-analysis of the deposited data

Results flagged for a closer look

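The 9 strain values were compared in 65 sets, and a strain was picked out where its gap to the nearest other strain exceeded the 95% limit of Dixon's criterion for 9 values. The rule that picks private bins also shapes most of these values, so the gap is used to describe them and not as a test. Such a strain was found in 13 sets and was PWK/PhJ in 10. For independent sets the limit would pick about 1 in 20, or 3.25 of 65. Many of these sets rest on the same bins, and each strain shapes the values of the others. The 13 sets therefore cannot be read against that number.

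PWK/PhJ stood apart in its private share of autosomal bins, 4.56%. It did so in the share of bins shared by the other 8 strains in which it differed, with 23.9% for state 8, 61.3% for state 9, 56.8% for state 11, 21.4% for state 13 and 5.61% for state 14. It also stood apart in the genes touched of 4 families, with 29.0% of cytochrome P450 genes, 75% of major urinary protein genes, 28.7% of olfactory receptor genes and 18.6% of vomeronasal receptor genes. Over all genes the PWK/PhJ share was 18.3%, so the vomeronasal value is at that background. All 10 values were the highest of the 9 strains. In the families, near-identical copies limit how surely reads are placed. State 11 rested on 296 shared bins and the urinary protein family on 16 genes.

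Since every strain also helps to define the private bins of the others, the values were set beside those of the other strains with PWK/PhJ left out. State 9 then differed in 2.71% to 13.3% of bins in the others, and in 60.8% to 64.6% in PWK/PhJ with 1 other strain left out. For state 13 the values were 2.90% to 16.5% and 21.7% to 26.7%, and for state 14 they were 0.848% to 3.72% and 5.66% to 6.23%. For state 8 they were 2.64% to 15.6% and 24.1% to 30.0%. For olfactory receptors they were 3.84% to 11.5% and 29.0% to 31.4%. For major urinary proteins they met, at 0 to 75% and 75% to 87.5%.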

How the results depend on the processing

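No direction against the mean of the other strains turned in any alternative run. The private share was 4.78% to 5.63% with 1 other strain left out in turn, and 5.63%, the highest, without CAST/EiJ. It was 3.77% with a match within 1 bin and 1.02% with states 13 and 14 merged, where CAST/EiJ was higher. It was 6.98% of the bins that the other 8 strains share and 10.2% of bins outside state 14 in at least 1 strain. Genes touched were 19.7% to 22.2% with 1 strain left out. They were 9.84% with a match within 1 bin, 13.7% with states 13 and 14 merged, 9.87% in windows of 500 bp, 36.8% in windows of 2 kb and 4.42% with at least 3 private bins. With both ends of all protein-coding genes, an alternative chosen after seeing the data, they were 26.2%. PWK/PhJ was above the mean of the other strains in all of these. With states 13 and 14 merged, the share leaving state 14 was 46.1%, the share entering it 28.5% and the mean run 417 bp, which moved the run length into the range of the other strains and both shares out of it. The ranges with 1 strain left out were 67.5% to 71.8% leaving and 21.8% to 25.3% entering state 14, 807 to 853 bp, 33.6% to 35.6% islands and a ratio of 0.769 to 0.791. The strain values with PWK/PhJ left out were also added after the data had been seen. Depth is unknown, each strain is 1 segmentation, and a difference of the strain and a difference of its libraries cannot be told apart. No paired analysis was possible because each segmentation merges its mice and carries no replicate number.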
